A study of Mus musculus with 18 samples.

Results

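The genes described here are 8 members of the T helper 1 program around Tbx21: Tbx21, Cxcr3, Il12rb1, Il12rb2, Runx3, Stat4, Ccl5 and Ifng. They were chosen by gene name, and all 8 were found among the 15697 named features of the table. Messenger RNA was measured by 3′ end sequencing in 18 libraries of 6 groups, with 3 libraries in each. The first group was P13.9, a mouse fibroblast line, and the second was naive CD4+ T cells from spleen and lymph node of 5CC7 T cell receptor transgenic mice. In the other 4 groups the same naive cells had spent 4 days with P13.9 as antigen-presenting cells, loaded with the peptide pPCC at 0.01, 0.1, 1.0 or 10 µM. The series set out to compare how cells differentiate after T cell receptor signals of different strength. All T cells thus came from mice with the same receptor transgene, and all activated cells had met 1 line of presenting cells. The strain, age and number of mice are not given in the labels, and neither is any step that parted the T cells from P13.9 before RNA was taken. Whether the libraries of a group stand for different mice or cultures is not stated in the labels, and the p-values therefore measure only the spread between libraries, which may be technical.

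T-bet, the protein made from Tbx21, is the transcription factor that defines T helper 1 cells, the CD4+ T cells that act against intracellular microbes through interferon gamma. In the textbook account, T cell receptor and interferon gamma signals first raise T-bet, which then favours expression of the interleukin 12 receptor chain Il12rb2, so that interleukin 12 can act through STAT4 to fix the program. T-bet and RUNX3 are known to act together on Ifng, and Cxcr3 and Ccl5 are among the genes known to depend on T-bet.

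A level below is the normalised value in the table, in which each library's reads were divided by 1 scaling factor. The naive libraries were shallow, with 27784 to 97752 reads in named genes, against 156941 to 732987 in the activated libraries and 201620 to 351978 in P13.9. A single read was worth 2.17 to 6.55 units in a naive library and at most 0.872 in an activated one, so low naive values carry a large counting error. Taken as a sum, T cell genes were present where they should be: the summed value of 8 CD4 T cell markers was 197 to 271 in naive and 150 to 292 in activated libraries, against 2.21 to 6.02 in P13.9. In naive cells Cd28, Lck and Cd3d had the highest means of the list, at 80.7, 56.4 and 40.1. Cd3e, Cd4 and Cd5 had means of 9.54, 7.66 and 2.18 there, and each had a lowest value of 0. P13.9 transcripts were also present in the cocultures. Their share, the median ratio to the P13.9 mean over Col1a2, Sparc and Fn1, came to 29.4 ± 4.40% (SD, n = 3) for 0.01 µM, 6.03 ± 0.922% for 0.1 µM, 3.79 ± 1.15% for 1.0 µM and 1.21 ± 0.284% for 10 µM. Naive libraries gave 3.17 ± 2.80% (0 to 5.29%) by the same measure, and the shares at 1.0 and 10 µM did not exceed that range. By 12 other genes with no naive read the share was 20.8, 6.26, 5.54 and 2.50% in order of rising dose. The 3 genes differed at 0.01 µM, with means of 33.7 against 277 in P13.9 for Fn1 and 36.6 against 123 for Sparc. Fewer T cells among the cells and less T cell RNA per cell cannot be told apart in these bulk libraries.

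RefSeq promoter sequences of the GRCm38.p6 build were matched for 6 of the 8 genes, from 250 bases before the start of transcription to 50 after it. The promoters of the 3 of these genes that were called higher at 10 than at 0.01 µM are printed 5′ to 3′ on the strand of the gene, to show which binding motifs of the program's own factors they hold. Searched on both strands were the T-box half-site GGTGTG, the Runx core TGTGGT and the STAT site TTCNNNGAA, and capitals mark every match (ACCACA is the Runx core read from the opposite strand).
Tbx21, chr11:97115282-97115581, minus strand: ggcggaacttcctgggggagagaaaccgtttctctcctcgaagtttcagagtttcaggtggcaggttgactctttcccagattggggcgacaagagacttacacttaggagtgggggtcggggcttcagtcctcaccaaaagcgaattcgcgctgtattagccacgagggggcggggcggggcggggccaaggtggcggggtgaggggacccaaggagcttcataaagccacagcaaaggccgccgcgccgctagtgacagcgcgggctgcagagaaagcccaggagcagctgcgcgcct
Cxcr3, chrX:101734098-101734397, minus strand: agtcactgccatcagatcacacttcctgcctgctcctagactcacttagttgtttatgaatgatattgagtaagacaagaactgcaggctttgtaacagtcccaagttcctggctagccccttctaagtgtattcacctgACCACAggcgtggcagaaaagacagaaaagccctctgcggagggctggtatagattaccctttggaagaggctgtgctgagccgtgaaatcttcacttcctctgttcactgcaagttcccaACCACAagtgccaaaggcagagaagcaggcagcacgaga
Il12rb2, chr6:67376139-67376438, minus strand: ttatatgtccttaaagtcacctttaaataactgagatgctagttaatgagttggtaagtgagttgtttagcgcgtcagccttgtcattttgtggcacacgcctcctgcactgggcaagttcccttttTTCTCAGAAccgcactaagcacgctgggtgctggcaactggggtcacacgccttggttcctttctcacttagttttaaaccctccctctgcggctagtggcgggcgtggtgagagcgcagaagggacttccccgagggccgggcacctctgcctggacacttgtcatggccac
The Cxcr3 promoter held 2 Runx cores, which start at positions -110 and 11 from the start of transcription. Il12rb2 held 1 STAT site, which starts at position -123, and the Tbx21 window held none of the 3 motifs. No T-box half-site was found in any of the 6 genes' windows. Among the others, the first Runx3 start had 2 Runx cores, Ifng had 1 STAT site and Stat4 had none of the 3. Of 32851 mouse promoters of the same length, 19.0% held the T-box half-site, 16.8% the Runx core and 8.3% the STAT site. A match is a description of letters in the window and not evidence of binding.

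Tbx21 lies on chromosome 11 at 97098007 to 97115331 of GRCm38.p6, and its level separated the doses most clearly at the ends of the range. The 3 libraries of 0.01 µM gave 1.17, 0.927 and 1.01, those of 0.1 µM gave 9.76, 5.23 and 8.70, those of 1.0 µM gave 7.87, 12.4 and 8.92 and those of 10 µM gave 17.2, 19.2 and 16.1. Every library at 10 µM lay above every library of the 2 middle doses, these overlapped each other, and every library at 0.01 µM lay below them all. Naive cells held 1.31, 3.90 and 4.33, above the 0.01 µM libraries and below the rest. P13.9 held 1 Tbx21 read in all, in 1 of its 3 libraries. In order of mean level the groups ran P13.9, 0.01 µM, naive, 0.1 µM, 1.0 µM and 10 µM, and 0.1 and 1.0 µM were the only neighbours whose libraries overlapped.

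Changes were tested on the scale of log2(value + 1) with limma across the 7263 genes that reached a value of 5 in 3 or more of the 15 T cell libraries. A gene was called at a Benjamini-Hochberg adjusted p below 0.05, and errors are standard errors of the fit. No library at 0.01 µM reached a value of 5 for Tbx21, Cxcr3 or Il12rb2, and fewer than 3 naive libraries did. These 3 genes thus passed the filter only through the upper doses, and a difference from the lowest dose was in part built into their being tested. Tbx21 rose from 0.01 to 10 µM by 3.18 ± 0.38 (limma adjusted p = 0.000141, and 0.000388 with no filter). It also rose by 2.09 ± 0.38 from 0.01 to 0.1 µM (adjusted p = 0.00728) and by 2.38 ± 0.38 from 0.01 to 1.0 µM (adjusted p = 0.00242). Counted as reads over all 3 libraries, 201 at 10 µM against 14 at 0.01 µM, the level was 16.3-fold higher, with an exact 95% counting interval of 9.48 to 30.3. Against naive cells Tbx21 was higher by 1.14 ± 0.38 at 0.1 µM (limma adjusted p = 0.0186), by 1.43 ± 0.38 at 1.0 µM (adjusted p = 0.00518) and by 2.23 ± 0.38 at 10 µM (adjusted p = 0.000143). The naive Tbx21 level rests on 3 whole reads and the value of 1.31 in the first naive library, which is 0.2 of a read. With that value left out as missing, the change at 0.1 µM was 0.76 (adjusted p = 0.0945), and the calls at 1.0 and 10 µM remained. The call at 0.1 µM was also lost without library A (adjusted p = 0.0742) or library C (adjusted p = 0.0586) of that dose. With a spread taken from both groups alone, Tbx21 at 0.1 µM (adjusted p = 0.152) and 1.0 µM (adjusted p = 0.0798) was no longer called against naive cells, while 10 µM was.

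**Figure D1:**
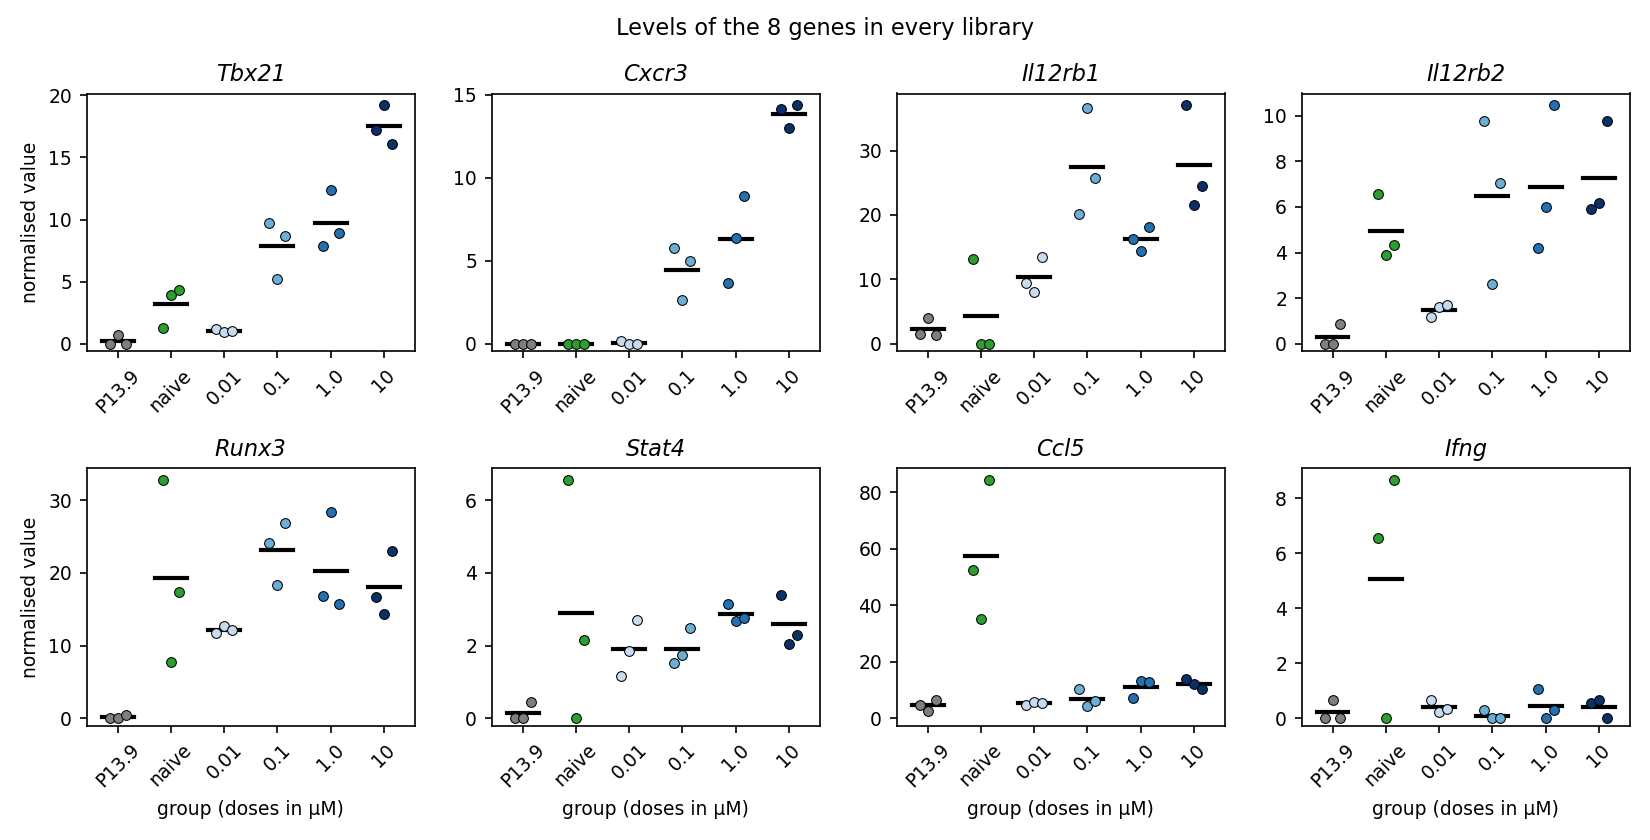
Normalised value (vertical axis, linear, a separate scale for each gene) of the 8 genes in every library (points) and the mean of each group (bars), for P13.9, naive cells and the 4 peptide doses in µM. Tbx21 and Cxcr3 are highest in the 3 libraries at 10 µM, at 16.1 to 19.2 and 13 to 14.4, and Ccl5 is highest in naive cells, at 35.1 to 84.5.

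Runx3, which encodes a transcription factor partner of T-bet and lies on chromosome 4 at 135120645 to 135177990, followed a different course. The lowest dose gave 11.7, 12.8 and 12.1, while 0.1 µM gave 24.1, 18.3 and 26.9, 1.0 µM gave 16.8, 28.4 and 15.7 and 10 µM gave 16.7, 14.4 and 23.0. All 9 libraries of the upper 3 doses lay above the 0.01 µM libraries, and those 3 doses overlapped one another. Naive cells spanned 7.81 to 32.8, and P13.9 held 1 read. The change from 0.01 to 10 µM was 0.50 ± 0.39 (limma adjusted p = 0.522), and no comparison between doses passed limma's test, while edgeR's quasi-likelihood test on recovered reads called that change (0.63, adjusted p = 0.0416). Runx3 was also called by edgeR from 0.01 to 0.1 µM (0.94, adjusted p = 0.00627), where 11.3% of all genes were called higher, and from 0.01 to 1.0 µM (0.77, adjusted p = 0.0249), where 10.7% were. With a spread taken from both groups alone, limma called the change to 0.1 µM too (0.85, adjusted p = 0.0205). After the P13.9 share had been subtracted from each library and the rest rescaled, the change from 0.01 to 10 µM was 0.05, or 0.23 with the share taken from 12 other genes. Runx3 was higher at 0.01 µM than in P13.9 by 3.55 ± 0.39 (limma adjusted p = 2.36e-06, in a fit of all 18 libraries).

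The ratio of Tbx21 to Runx3 within a library does not depend on the library's scaling factor. Its mean came to 0.0854 for 0.01 µM, 0.338 for 0.1 µM, 0.491 for 1.0 µM and 1.02 for 10 µM (n = 3 each). The ranges of 10 and 1.0 µM did not overlap, and neither did those of 0.1 and 0.01 µM. Each of the 5 differences computed between doses had a two-sided exact permutation p of 0.1, the smallest that 3 against 3 allow, and an adjusted p of 0.15 over the 15 such comparisons of 3 ratios. Because reads come from the 3′ end of each transcript, the change of a ratio across doses can be read, but its size says nothing of which gene is more abundant.

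Cxcr3, the receptor for interferon-induced chemokines that draws T helper 1 cells into inflamed tissue, lies on the X chromosome at 101731535 to 101734147. It had no read in any P13.9 or naive library and 1 read in 1 of the 3 libraries at 0.01 µM. Libraries of 0.1 µM gave 5.79, 2.61 and 4.97, those of 1.0 µM gave 3.67, 6.35 and 8.92 and those of 10 µM gave 14.1, 13 and 14.4. The libraries at 10 µM were close together and above all others, and the 2 middle doses overlapped.

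Cxcr3 rose from 0.01 to 10 µM by 3.82 ± 0.34 (limma adjusted p = 1.38e-05), the largest rise of the 7263 genes tested, with Tbx21 in the next place. With 163 reads against 1, the ratio of levels was 185, with a 95% counting interval of 32.7 to 7350. The rise was 2.32 ± 0.34 from 0.01 to 0.1 µM (adjusted p = 0.00213) and 2.73 ± 0.34 from 0.01 to 1.0 µM (adjusted p = 0.000323). From 1.0 to 10 µM the change was 1.09 ± 0.34 (adjusted p = 0.601), where edgeR's quasi-likelihood test on recovered reads called it (1.09, adjusted p = 0.0412) among 2.41% of all genes. Like Tbx21, Cxcr3 passed the filter on low values only through the upper 3 doses. In naive cells there was no Cxcr3 read in 178809, and a floor of 3 reads over the naive group stands for a level of 3.45 (the two-sided exact limit is 4.24). The pooled level at 10 µM was 14.0 with a counting interval of 11.9 to 16.3, and it was 4.05 times that floor. At 1.0 µM the interval was 5.08 to 8.78, and the pooled level was 1.96 times the floor. Both are ratios of a pooled level to the floor and leave out its counting error, so they are not lower limits of the fold. At 0.1 µM the interval of 3.44 to 6.94 reached the floor, so no ratio is given.

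The ratio of Cxcr3 to Tbx21 within a library averaged 0.0476 for 0.01 µM, 0.555 for 0.1 µM, 0.660 for 1.0 µM and 0.797 for 10 µM. It was higher in each library at 10 µM than in each at 0.1 µM, by 0.242 on average (exact permutation p = 0.1, the smallest possible, and adjusted p = 0.15). Library C of 1.0 µM, at 1.0, lay above the 10 µM range of 0.679 to 0.893. The difference between 10 and 1.0 µM was 0.137 (exact permutation p = 0.5, adjusted p = 0.536), so the ratio did not separate these doses. At 0.01 µM it rests on 1 Cxcr3 read and 14 Tbx21 reads.

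**Figure D2:**
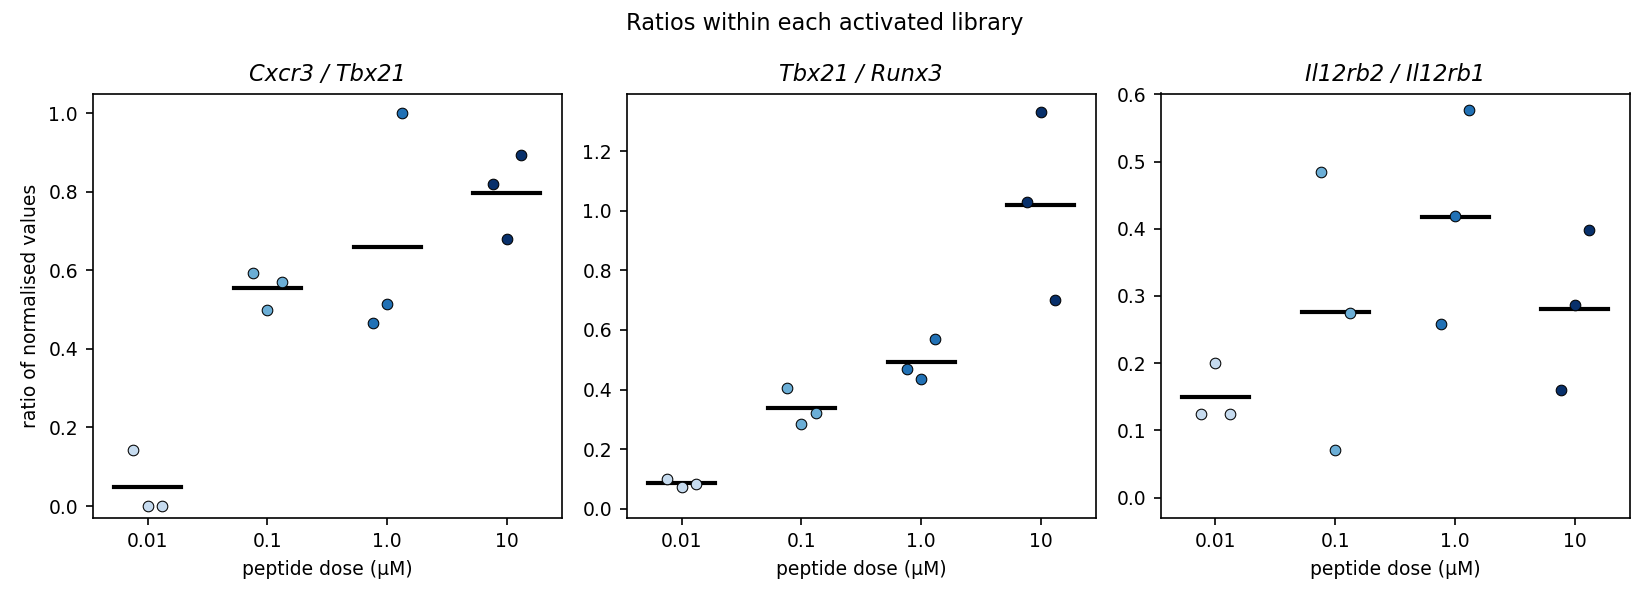
Ratio of normalised values within each activated library (points) and its mean (bars) for 3 pairs of genes, by peptide dose in µM. Cxcr3 over Tbx21 goes from a mean of 0.0476 to 0.797 and Tbx21 over Runx3 from 0.0854 to 1.02 between the lowest and the highest dose, and the Il12rb2 over Il12rb1 ratios of the upper 3 doses overlap.

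The receptor for interleukin 12 is a pair of chains, of which Il12rb1 is shared with the interleukin 23 receptor and Il12rb2 is the signalling chain that is restricted to T helper 1 cells among CD4+ subsets. Il12rb1 (chromosome 8, 70808360 to 70823542) had values of 9.38, 8.11 and 13.5 for 0.01 µM, of 20.1, 36.6 and 25.7 for 0.1 µM, of 16.3, 14.4 and 18.1 for 1.0 µM and of 37.0, 21.6 and 24.5 for 10 µM. Every library of the upper 3 doses was above those at 0.01 µM, and the 1.0 µM libraries were below those at 0.1 and 10 µM. In naive cells it had 2 reads, both in 1 library, which gave 13.1 there and 0 in the other 2, and P13.9 held 1.33 to 4.01.

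The change of Il12rb1 from 0.01 to 10 µM was 1.33 ± 0.72 (limma adjusted p = 0.306). Its standard error was the largest among the 6 genes tested, and the naive library at 13.1 beside 0 and 0 enters that shared spread. With edgeR on recovered reads the change was 1.50 and was called (adjusted p = 3.68e-05). Counted as reads, 322 against 131, the level at 10 µM was 2.79-fold higher, with a counting interval of 2.27 to 3.44. Against naive cells Il12rb1 was higher at each dose, by 2.20 ± 0.72 at 0.01 µM (limma adjusted p = 0.0202) and by 3.53 ± 0.72 at 10 µM (adjusted p = 0.000708). The call at 0.01 µM was lost without the second naive library (adjusted p = 0.0923) or the third (adjusted p = 0.0970), or without library C of that dose (adjusted p = 0.0690). With a spread from both groups alone, Il12rb1 was not called against naive cells at 0.01 µM (adjusted p = 0.157) or 1.0 µM (adjusted p = 0.0671). Between doses, limma with that spread called it from 0.01 to 10 µM (adjusted p = 0.00914), among 2548 of 7263 genes. From 0.01 to 0.1 µM it was called too (adjusted p = 0.025), among 1402 genes.

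Il12rb2 (chromosome 6, 67285986 to 67376293) had values of 1.17, 1.62 and 1.69 for 0.01 µM, of 9.76, 2.61 and 7.04 for 0.1 µM, of 4.20, 6.02 and 10.5 for 1.0 µM and of 5.93, 6.17 and 9.77 for 10 µM. The 0.01 µM libraries lay below all other T cell libraries, and the upper 3 doses overlapped one another and the naive range of 3.90 to 6.55. P13.9 held 2 reads. From 0.01 to 10 µM it rose by 1.71 ± 0.44 (limma adjusted p = 0.0262), and by reads, 90 against 19, the level was 5.37-fold higher (counting interval 3.25 to 9.34). The call was lost without any one of the 6 libraries compared, at adjusted p = 0.0672 to 0.109, and after subtraction of the P13.9 share (1.46, adjusted p = 0.0631). It was kept with edgeR on recovered reads (2.39, adjusted p = 2.44e-05), where 15.5% of all genes were called higher. DESeq2 (2.48, adjusted p = 2.75e-05) and limma with a spread from both groups alone (adjusted p = 0.00296) kept it too. Il12rb2 was lower at 0.01 µM than in naive cells by a log2 change of -1.23 ± 0.44 (adjusted p = 0.0310), where the naive level rests on 4 reads. That call was lost without the first naive library (adjusted p = 0.0599) and without library A (0.0925), B (0.0651) or C (0.0589) at 0.01 µM, and with edgeR (adjusted p = 0.384).

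The ratio of Il12rb2 to Il12rb1 averaged 0.150 for 0.01 µM, 0.277 for 0.1 µM, 0.418 for 1.0 µM and 0.281 for 10 µM, and the libraries of the upper 3 doses overlapped. The difference between 10 and 0.01 µM was 0.131 (exact permutation p = 0.2; adjusted p = 0.273).

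Stat4 (chromosome 1, 51987106 to 52107189), which encodes the transcription factor that carries the interleukin 12 signal, was low throughout. Values ran between 1.17 and 2.70 for 0.01 µM, 1.52 and 2.49 for 0.1 µM, 2.67 and 3.15 for 1.0 µM and 2.06 and 3.39 for 10 µM, from 23, 13, 23 and 30 reads. Naive cells had 6.55, 0 and 2.17, from 2 reads, and P13.9 had 1 read. The doses overlapped, except that each 1.0 µM library lay above each at 0.1 µM. Stat4 did not reach the filter, and in the fit with no filter its change from 0.01 to 10 µM was 0.32 ± 0.56 (limma adjusted p = 0.896). By reads the ratio was 1.48, with a counting interval of 0.831 to 2.67, so at this depth neither a fall to 0.831 nor a rise to 2.67 times can be told from no change.

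**Figure D3:**
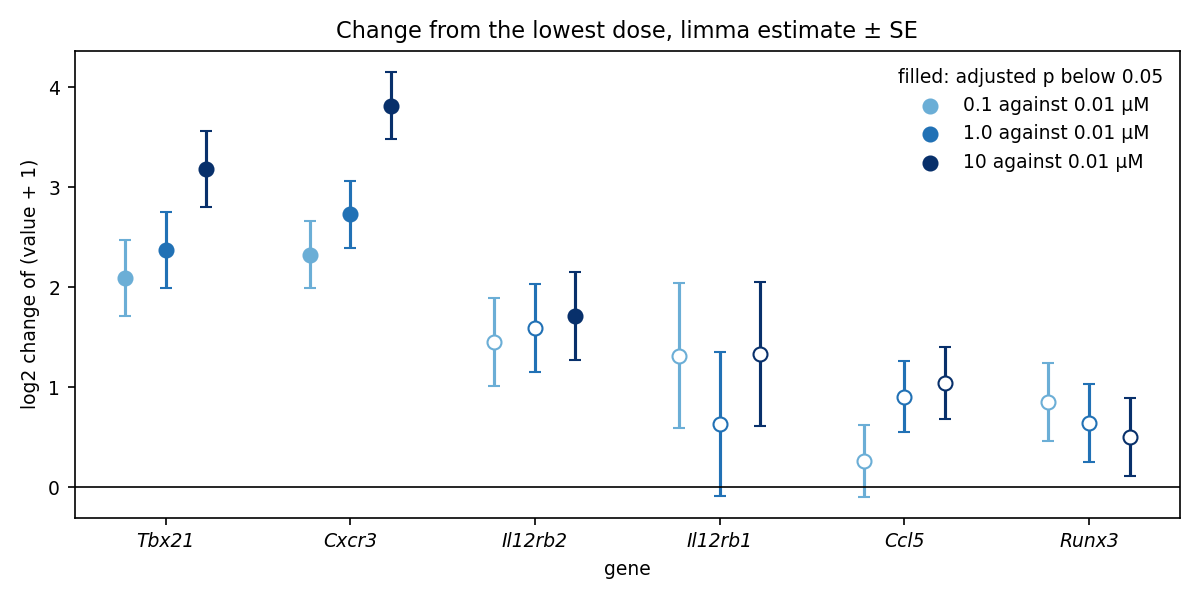
Log2 change of (value + 1) against 0.01 µM for the 6 genes that passed the filter, as the limma estimate ± standard error (3 libraries per group), with filled points where the adjusted p was below 0.05. Tbx21 and Cxcr3 are filled at all 3 higher doses and Il12rb2 at 10 µM only, while Il12rb1, Ccl5 and Runx3 are open throughout.

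Among the secreted products, Ccl5, a chemokine that attracts T cells and monocytes, was highest in naive cells. It lies on chromosome 11 at 83525778 to 83530518. Naive libraries gave 52.4, 35.1 and 84.5. The cocultures gave 4.86, 5.80 and 5.40 for 0.01 µM, 10.4, 4.36 and 6.21 for 0.1 µM, 7.35, 13.4 and 12.9 for 1.0 µM and 13.8, 12 and 10.5 for 10 µM. Every naive library was above every other library, and among the doses each library at 10 and 1.0 µM was above each at 0.01 µM. P13.9 held 4.60, 2.67 and 6.63, a range that overlapped the 0.01 and 0.1 µM libraries.

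Ccl5 was lower than in naive cells at each dose, with log2 changes of -3.11 ± 0.36 at 0.01 µM (limma adjusted p = 3.82e-06), -2.85 at 0.1 µM (adjusted p = 8.17e-06), -2.21 at 1.0 µM (adjusted p = 9.82e-05) and -2.07 at 10 µM (adjusted p = 0.000158). By reads the naive level was 5.41-fold that at 10 µM, with a counting interval of 3.89 to 7.42. From 0.01 to 10 µM the change was 1.04 ± 0.36 (adjusted p = 0.0896), which edgeR called (1.22, adjusted p = 0.0016). Markers of other cells moved with the naive samples: the summed value of the 5 NK and CD8 T cell markers in the table was 13.1 to 36.8 in naive cells, mostly from Klrk1 at 13.1 to 23.8, with Cd8a and Cd8b1 at 0, and at most 2.77 in activated libraries. The sum of 9 myeloid and dendritic cell markers was 125 to 160 in naive cells and 24.7 to 39.8 in activated libraries. It was 95.9 to 123 in P13.9, so the list is not specific to such cells. Cst3 had a mean of 48.7 in naive cells, 25.4 to 31.0 over the doses and 102 in P13.9. Lyz2, Cd68, Csf1r, Itgam, Tyrobp and Fcer1g also had higher means in naive cells than at any dose. Itgax and Adgre1 went the other way, with no naive read and some reads at 0.01 µM. Of 6 B cell markers only Pax5 was in the table, at 0 in naive cells. The part of such cells in the Ccl5 difference was not tested.

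Ifng (chromosome 10, 118441046 to 118445894), the defining cytokine of T helper 1 cells, was barely detected after 4 days. The 12 activated libraries held 14 reads between them, namely 6 for 0.01 µM, 1 for 0.1 µM, 3 for 1.0 µM and 4 for 10 µM, and none exceeded a level of 1.05. Naive cells held 6.55, 0 and 8.66 from 5 reads, and P13.9 held 1 read. Ifng did not reach the filter, and with no filter its change from 0.01 to 10 µM was -0.02 ± 0.63 (limma adjusted p = 1.0). By reads, the ratio of 10 to 0.01 µM was 0.756, with a counting interval of 0.157 to 3.19, so the depth could not show a change smaller than that. With no filter Ifng was lower at 0.1 µM than in naive cells (log2 change -1.94 ± 0.63, adjusted p = 0.0247), and at the other 3 doses the adjusted p was 0.0596 to 0.0639. The same marker sums apply here, and their part was not tested.

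Over the dose range as a whole, 3 of the 6 genes tested, Tbx21, Cxcr3 and Il12rb2, rose from 0.01 to 10 µM, and none fell. In each of the 6, every library at 10 µM lay above every library at 0.01 µM, as in 21.8% of all genes tested. Of all 7263 genes tested, 1.9% were called higher in that comparison and 8.15% in either direction. The median change was 1.52 over the 6 genes and -0.03 over all genes, but the filter that 6 of the 8 genes passed favours those that are high at some dose. With edgeR on recovered reads the 6 genes were all called higher, beside 15.5% of the 7263 genes. Per 10-fold dose, Cxcr3 rose by 1.19 ± 0.11 (limma adjusted p = 1.47e-05), Tbx21 by 0.98 ± 0.12 (adjusted p = 0.000189) and Il12rb2 by 0.53 ± 0.14 (adjusted p = 0.0352), where 1.39% of all genes were called higher. The slope of Il12rb2 was not called after subtraction of the P13.9 share (adjusted p = 0.0832), nor without any one library of 0.01 or 10 µM or library C of 1.0 µM (adjusted p = 0.0548 to 0.130). From 0.01 to 0.1 µM 2 of the 6, Tbx21 and Cxcr3, were called higher, against 2.18% of all genes. From 0.01 to 1.0 µM it was again Tbx21 and Cxcr3, against 1.64%.

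The steps above 0.1 µM gave no call among the 6 genes by limma. From 0.1 to 1.0 µM limma, edgeR and DESeq2 called 0 of the 7263 genes, and 110 had an unadjusted limma p below 0.05, none of them among these 6. From 1.0 to 10 µM 0.0826% of all genes were called, and from 0.1 to 10 µM 0.0964%. For Tbx21 the change from 0.1 to 10 µM was 1.09 ± 0.38 (limma adjusted p = 0.632) and for Cxcr3 1.49 ± 0.34 (adjusted p = 0.151), with higher values in 3 of 3 libraries against 3 of 3. How many of all genes were separated in that way was not counted. At an unadjusted p below 0.05, limma passed Tbx21, Cxcr3 and Ccl5 from 0.1 to 10 µM, among 371 of the 7263 genes. From 1.0 to 10 µM it passed Cxcr3, among 380 of the 7263 genes. With edgeR on recovered reads, Tbx21 rose by 1.10 (adjusted p = 0.0184) and Cxcr3 by 1.56 (adjusted p = 0.00596) from 0.1 to 10 µM, and 1.53% of all genes were called. The sample numbers in the labels fall into 2 series, 1 of 10 and 0.1 µM and 1 of the remaining groups. Among the doses, 10 against 0.1 µM and 1.0 against 0.01 µM are comparisons within a series of numbers. The other dose comparisons, 10 against 0.01 µM among them, cross the series, as do 0.1 and 10 µM against naive cells. In those, dose and series cannot be told apart. What the series of numbers stand for is not given.

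Against naive cells, where 49.4% of all genes were called for 0.01 µM, 56.3% for 0.1 µM, 54.7% for 1.0 µM and 57.1% for 10 µM, calls among the 6 genes numbered 3, 4, 4 and 4. These shares are near the background and say nothing particular of the genes. P13.9 against naive cells gave 4 calls of 6, all lower in P13.9 (Tbx21, Il12rb2, Runx3 and Ccl5), where 59% of 8178 genes were called. The 0.01 µM cocultures against P13.9 gave 1 call, Runx3, where 25.1% were called. Of the 8 genes, only Ccl5 and Il12rb1 had more than 2 reads in P13.9, with 25 and 11.

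The P13.9 share moved opposite to Tbx21 and Cxcr3, with a difference of -28.2 points between 10 and 0.01 µM (exact permutation p = 0.1, the smallest possible), or -18.3 points by 12 other genes that have no naive read. With the first share subtracted, the log2 changes were 2.98 for Tbx21 (limma adjusted p = 0.000232), 3.81 for Cxcr3 (adjusted p = 1.42e-05), 1.46 for Il12rb2, 0.98 for Il12rb1 and 0.98 for Ccl5. The CD4 T cell marker sum was 150 to 172 at 0.01 µM and 247 to 292 over the upper 3 doses, a range that did not overlap it. Cd3g, at a mean of 7.27 for 0.01 µM and 6.28, 7.75 and 6.75 for the upper doses, did not follow the sum. Neither did Cd28, at 17.9 against 15.2, 18.8 and 20.4. The other markers of the list had a lower mean at 0.01 µM than at each upper dose.

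**Figure D4:**
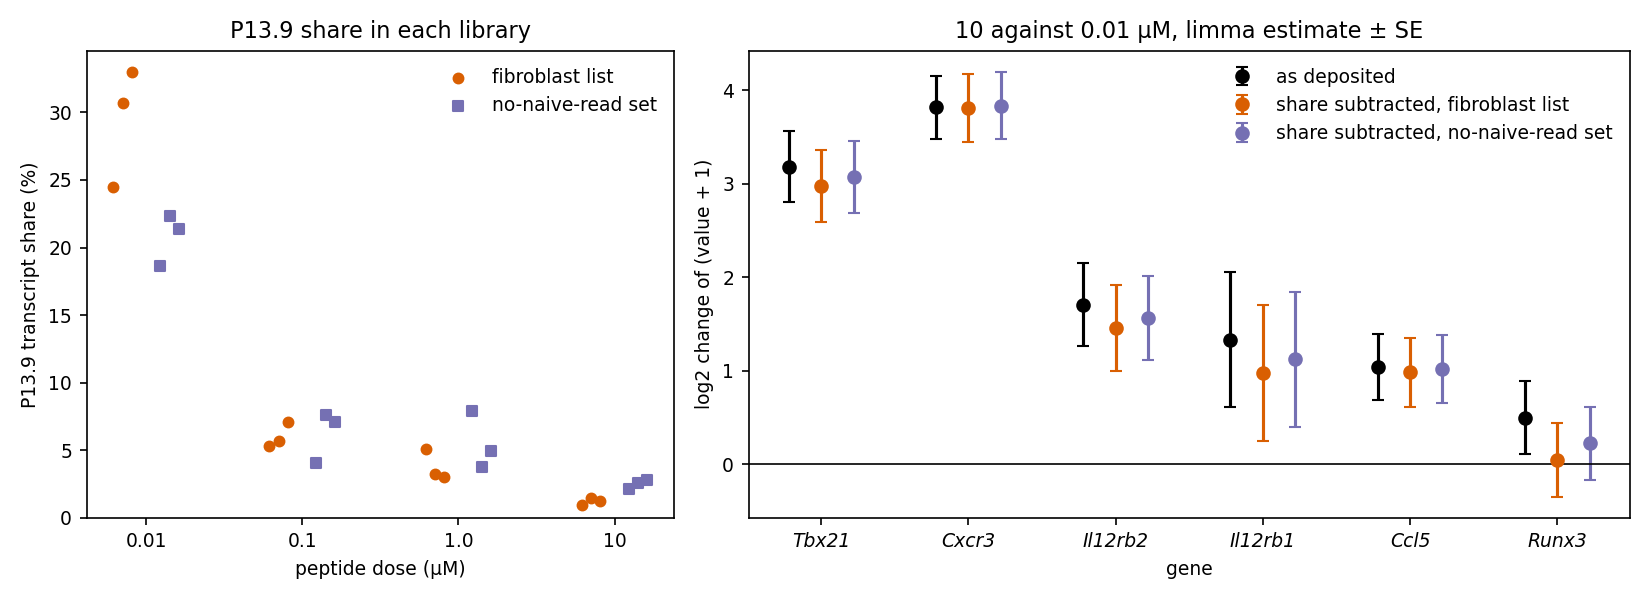
Left, P13.9 transcript share (%) in each activated library by dose, from the 3 fibroblast genes (circles) and from 12 other genes that had no naive read (squares). Right, log2 change from 0.01 to 10 µM (limma estimate ± standard error, 3 libraries per group) as deposited and with either share subtracted: Cxcr3 stays at 3.81 to 3.83 and Tbx21 at 2.98 to 3.18, while Runx3 goes from 0.50 to 0.05 with the first share and 0.23 with the other.

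Other genes of the pathway did not move one way. Of 45 listed genes, 42 were in the table and 29 passed the filter, and from 0.01 to 10 µM 4 of these rose, 5 fell and 20 did not pass limma's test, where 1.9% of all genes were called higher and 6.25% lower. With edgeR on recovered reads 8 rose, 10 fell and 11 did not pass, where 15.5% of all genes were called higher and 19.3% lower. By limma the median change of the 29 genes was -0.26, against -0.03 over all genes. Among cytokine receptors and signalling genes, 1 of 7 rose and 2 fell by limma, and 2 rose and 2 fell by edgeR. Socs3, an inhibitor of cytokine signals, fell by 1.94 (limma adjusted p = 0.0156), and Jak2, a kinase of the interleukin 12 and interferon gamma receptors, fell by 1.45 (adjusted p = 0.0406). Socs3 was at 10.8 in P13.9, and the part of the P13.9 share in its fall was not tested.

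Among 9 other transcription factors of the program, 2 rose and 2 fell by limma, beside 1.9% and 6.25% of all genes, while edgeR called 3 higher and 4 lower. Irf1, an interferon-induced factor, rose by 1.04 ± 0.19 (limma adjusted p = 0.00369), from 28.4 ± 2.08 to 59.7 ± 6.23, with P13.9 at 27.2 ± 5.20. Naive cells held more Irf1, 103 ± 26.6, and limma called each dose lower than naive. At 10 µM that log2 change was -0.74 ± 0.19 (limma adjusted p = 0.00433). With edgeR, Irf1 was called lower than naive at 0.01, 0.1 and 1.0 µM but not at 10 µM. Bhlhe40, a factor that supports cytokine production in T helper cells, rose by 0.96 ± 0.24 (adjusted p = 0.0228). It reached 49.4 at 10 µM, against 56.2 in naive cells, with no limma call between them (adjusted p = 0.656). With edgeR, Bhlhe40 was called higher at 10 µM than in naive cells. Runx1, a relative of Runx3, fell by 1.12 ± 0.31 (adjusted p = 0.0382), and Zeb2, a repressor found in terminal effector cells, fell by 1.54 ± 0.41 (adjusted p = 0.0318) from a level of 2.77 at 0.01 µM. P13.9 held 10.2 of Runx1 and 5.89 of Zeb2, and the part of the P13.9 share in both falls was not tested.

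Among 13 effector and surface genes, 1 rose and 1 fell by limma, against the same 1.9% and 6.25% of all genes, while edgeR called 3 higher (Gzmb, Ly6c2 and Selplg) and 4 lower (Gadd45b, Ccl4, Tnf and Cxcr6). Selplg, which encodes the selectin ligand PSGL-1, rose by 1.01 ± 0.26 (limma adjusted p = 0.0268). It reached 24.7 at 10 µM, against 29.8 in naive cells, with no call between them (limma adjusted p = 0.492). Cxcr6, another chemokine receptor of effector T cells, fell by 2.0 ± 0.39 (adjusted p = 0.00505), the opposite of Cxcr3. Its mean came to 10.4 ± 2.14 (SD, n = 3) for 0.01 µM, 14.0 ± 2.6 for 0.1 µM, 16.2 ± 5.61 for 1.0 µM and 1.90 ± 0.830 for 10 µM, and it was called lower at 10 than at 1.0 µM as well (log2 change -2.57 ± 0.39, adjusted p = 0.0156). P13.9 held 0.446 of Cxcr6. Gzmb, which encodes granzyme B, changed by 1.59 ± 0.53 (adjusted p = 0.0793) and Ccl4, a chemokine related to Ccl5, by -1.35 ± 0.43 (adjusted p = 0.0657).

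The genes whose profile over the 4 dose means lay nearest to that of Tbx21 were sought among the 4821 whose mean over activated libraries was 5 or more, by the mean absolute difference of the centred log2(value + 1) profiles. Hic1, which encodes a transcriptional repressor, was nearest at 0.134, with mean levels of 0.799, 6.84, 6.84 and 12.8 in order of rising dose. Cxcr3 stood at 0.189, with only Hic1 nearer, and Il12rb2 at 0.405. Next after Hic1 came Slc16a3, a lactate transporter gene, at 0.381, Gimap7 at 0.387, Batf3, a transcription factor of the AP-1 family, at 0.402 and Chchd10, a mitochondrial protein gene, at 0.422. Hic1 and Gimap7, like Cxcr3, had no read in naive cells or P13.9. Over 4 points that share libraries, this likeness is a description with no test. The other members were farther from Tbx21, at 0.680 for Ccl5, 0.705 for Il12rb1, 0.794 for Runx3, 0.858 for Stat4 and 1.00 for Ifng.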

How the data were processed

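The Lexogen QuantSeq kit reads transcript 3′ ends and served for all libraries, per the labels' protocols. FastQC 0.11.8, STAR 2.6.1d, HTSeq 0.9.1, DESeq2 and the mm10 build are named in the submitters' processing notes, and no source used here gives the annotation or the strand setting. The deposited table holds a signal for each gene in each library, normalised by the authors (median of ratios, as the file's name says). Its steps gave whole reads for 99.9996% of 284544 values (tolerance 1e-05 reads). The 1 exception was Tbx21 in the first naive library. The naive and P13.9 columns carry numbers and not the letters of the titles, so they are replicates of their group only. The 111 features with no gene name were left out; they held 1.94% to 15.7% of a library's reads.

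limma 3.58.1 (lmFit, eBayes with a trend, R 4.3.3) was fitted to log2(value + 1) over the 15 T cell libraries with 1 shared spread, and P13.9 was compared in a fit of all 18 libraries. Fold changes on this scale understate those of low genes. edgeR 4.0.16 and DESeq2 1.42.0 were run on recovered reads as alternatives, beside other pseudocounts, filters, scalings, weights and left-out libraries, and the fits were tested on simulated data. Exact intervals cover counting error only. Members and lists were chosen with earlier results of these data known. The rule for named genes took the 8 members, at most 4 genes of each pathway group with the smallest adjusted p at 10 against 0.01 µM, and the 5 genes most like Tbx21. Cxcr6 at the other doses was singled out after its values were seen. Some listed genes are not reported here.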

Additional observations from a re-analysis of the deposited data

How the results depend on the processing

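Of 477 alternative values of the called changes, 437 kept direction and call, 40 kept direction and lost the call, and none reversed. The number of the 6 genes called moved with the test. For 10 against 0.01 µM it was 3 by limma with the shared spread, 5 when only both groups were fitted and 6 with array weights, edgeR or DESeq2. For 0.1 against 0.01 µM it went from 2 to 4, and to 5 with each of the other 3, and for 1.0 against 0.01 µM from 2 to 5 with those 3. For the slope it went from 3 to 5 in all 4, for 10 against 1.0 µM from 0 to 1 with edgeR, and for 10 against 0.1 µM from 0 to 2 with array weights or edgeR and 1 with DESeq2, which gave no adjusted p for Cxcr3 and Il12rb2 there. For 1.0 µM against naive it went from 4 to 2 when only both groups were fitted. For 0.01 µM against P13.9 it went from 1 to 4 with only both groups or array weights and to 2 with a pseudocount of 4, quantile rescaling, edgeR or DESeq2. With 1 library left out it was 2 for 10 against 0.01 µM, 2 to 3 for 0.1 against 0.01 µM and 1 to 3 for 0.01 µM against naive. The number called among all genes moved with the test too. For 10 against 0.01 µM limma called 592 of 7263 with the shared spread and 2548 when only both groups were fitted. There edgeR called 2528 and DESeq2 2330. In the same order, the counts were 406, 1402, 1746 and 1545 for 0.1 against 0.01 µM. They were 312, 958, 1623 and 1438 for 1.0 against 0.01 µM, and 474, 1680, 2127 and 1976 for the slope. For 10 against 1.0 µM the count over all genes went from 6 to 175 with edgeR. For 10 against 0.1 µM it went from 7 to 111 with edgeR and 134 with DESeq2. For 1.0 µM against naive it went from 3972 to 2533 when only both groups were fitted. For 0.01 µM against P13.9 it went from 2056 of 8178 to 3495 in that fit, 3539 with edgeR and 3305 with DESeq2. The P13.9 share difference of -28.2 points was -18.3 with the other gene set and -30.6 to -26.4 with 1 library left out. The cause of these moves was not tested. None of the 8 genes had a mean of at least 20, so the stricter filter gave no value. edgeR and DESeq2 moved the median change of all genes against naive cells to between 0.26 and 0.39, from between -0.07 and 0.03.

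The replicate letters did not pair the libraries of the doses: same-letter deviations correlated at -0.20 to 0.20, 3 of 18 above 0.1. With the letter as a replicate block, 3 genes were called for 10 against 0.01 µM, 2 for 0.1 and 2 for 1.0 against 0.01 µM and 2 for the slope, where Il12rb2 was not called (adjusted p = 0.0531). Naive and P13.9 columns carry no letter, so they had no such fit.

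Among changes not called in the main fit, signs turned as follows on the log2 scale. For 0.01 µM against naive, Cxcr3 was -0.80 with quantile rescaling and -2.53 with DESeq2, and Runx3 was 0.013, 0.14 (edgeR) and 0.014 (DESeq2). For 0.01 µM against P13.9, Cxcr3 was -0.055 with quantile rescaling and -0.37 with DESeq2. For P13.9 against naive, Il12rb1 was -0.071 with a pseudocount of 4 and -0.19 with quantile rescaling. For 10 against 0.1 µM, Il12rb1 was -0.048 and -0.035 with either P13.9 share subtracted. With array weights, 10 against 1.0 µM was -0.0045 for Il12rb2 and 0.016 for Runx3, and the Runx3 slope was -0.0089 with the fibroblast share subtracted. Leaving out 1 library at a time gave these ranges. Il12rb1 ran from -0.21 to 0.24 for 10 against 0.1 µM and from -0.28 to 1.63 for P13.9 against naive. Il12rb2 ran from -0.31 to 0.47 for 1.0 against 0.1 µM, from -0.14 to 0.43 for 10 against 1.0 µM, from -0.20 to 0.59 for 10 against 0.1 µM and from -0.11 to 0.68 for 0.1 µM against naive. Runx3 ran from -0.32 to 0.12 for 10 against 1.0 µM, and against naive from -0.91 to 0.055 at 0.01 µM, from -0.062 to 0.91 at 0.1 µM, from -0.27 to 0.70 at 1.0 µM and from -0.41 to 0.56 at 10 µM. Ccl5 ran from -0.028 to 0.51 for 0.1 against 0.01 µM, from -0.12 to 0.28 for 10 against 1.0 µM and from -0.045 to 0.48 for 0.01 µM against P13.9. Some of these changes were called with 1 library left out. Without the first naive library, Il12rb1 was called for P13.9 against naive (limma adjusted p = 0.000623). Runx3 was then called for 0.1 µM against naive (adjusted p = 0.0232). Without the second naive library, Runx3 was called for 0.01 µM against naive (adjusted p = 0.0284).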
